A study of Caenorhabditis elegans with 6 samples.

Results

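Invertebrate-type lysozymes and saposin-like proteins are small secreted proteins with which Caenorhabditis elegans attacks the bacteria that it eats. Described here are 8 of their genes, ilys-2, ilys-3 and ilys-5 of the lysozymes and spp-1, spp-3, spp-5, spp-8 and spp-9 of the saposin-like proteins. They were taken by gene symbol from the 46748 genes of the count table, which holds 6 ilys and 30 spp genes in all. Their levels were compared between worms that lack the circular RNA of crh-1 and wild-type worms.

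Lysozymes cut peptidoglycan, the mesh that gives the bacterial cell wall its strength, and nematodes have an invertebrate type beside the protist type of the lys genes. Saposin-like proteins of the worm, also called caenopores, resemble the amoebapores of amoebae. They are compact bundles of helices held together by disulfide bonds that insert into membranes, and several of them open pores in bacterial membranes. Most of the characterised ones are made in the intestine, where the ingested bacteria are lysed and digested.

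The knockout group consisted of 3 libraries of strain VDL786, genotype crh-1(syb385), and the wild-type group of 3 libraries of strain N2. The gene crh-1 encodes the CREB transcription factor, and the series describes the mutant as a knockout of its circular RNA. Both groups were whole adults at day 1, grown at 20 °C on E. coli OP50 and moved as L4 larvae to plates with 25 µM FUdR, which blocks DNA synthesis and so prevents progeny, then collected on a 30 µm mesh. FUdR and the same food were thus common to both genotypes, and the knockout was represented by a single strain. Each library was made from total RNA of whole worms with a stranded kit that removes ribosomal RNA. The replicates are described as independent, without a statement of what makes them so.

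Total counts ran from 38974777 to 47444165 in knockout libraries and from 40462731 to 42116982 in wild-type libraries. Ribosomal RNA took 22.9% to 58.5% of the knockout counts and 26% to 36.4% of the wild-type counts. The 58.5% belonged to knockout replicate 2, which kept 14188050 counts of protein-coding genes. The count of crh-1 pools linear and circular RNA and is no check of the genotype. It was 17.9, 17.6 and 23.9 CPM (counts brought to a common library size, with TMM factors) in knockout libraries and 20.6, 18.7 and 23.9 CPM in wild-type libraries. Markers of the intestine, the main site of these proteins, were present in every library, with 9 of 10 listed genes found in the table.

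Among the 8 genes, 5 carried nearly all of the counts. By mean RPKM (CPM per kilobase of exon, which allows genes of different length to be compared), the order over the 6 libraries was spp-5 with 733, ilys-5 with 425, spp-3 with 332.5, spp-1 with 59.7, spp-8 with 18.01, spp-9 with 3.21, ilys-2 with 0.602 and ilys-3 with 0.0879. In each of the 6 libraries every gene of that order lay above the next. Across libraries the ranges overlapped between spp-5 and ilys-5, between ilys-5 and spp-3, between spp-9 and ilys-2 and between ilys-2 and ilys-3, and they did not overlap at the other 3 steps. Among the 18342 protein-coding genes with any count, spp-5 stood at the 99.3rd percentile of RPKM and spp-9 at the 54.6th. RPKM of such short transcripts depends on the fragment length of the library, and its part in the order was not tested.

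**Figure D1:**
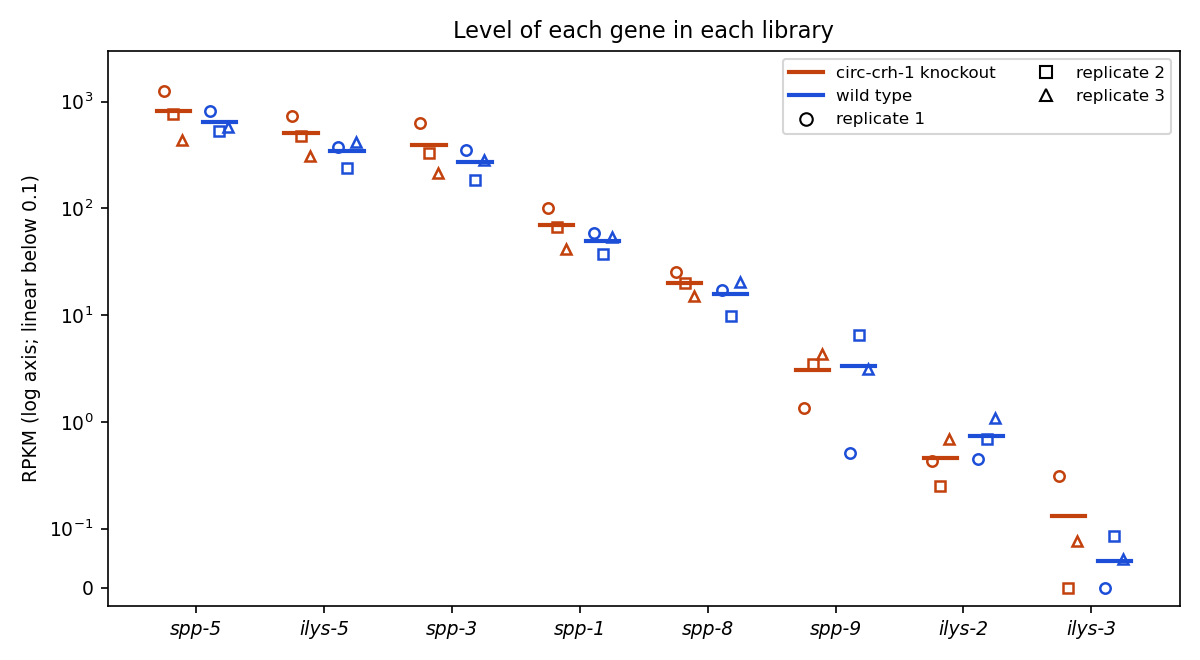
RPKM of each gene in each library, on a log axis that is linear below 0.1. Points are libraries (circle, square and triangle for replicates 1, 2 and 3) and bars are means of 3 knockout libraries (orange, left) and 3 wild-type libraries (blue, right). The mean of spp-5 was 822 RPKM in knockout and 644.5 RPKM in wild type, and libraries of both genotypes interleave in every gene.

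Among the pore-forming proteins, spp-5 encodes caenopore-5, an intestinal protein that kills bacteria by permeabilising their membranes. Its gene (WBGene00004990; WBcel235 X, 7319933 to 7320384, minus strand, 2 exon intervals, 404 bases of exon) had 508, 313 and 176 CPM in knockout replicates 1, 2 and 3 and 329.9, 216.3 and 235.0 CPM in wild-type replicates 1, 2 and 3. Knockout replicate 1 was the highest and knockout replicate 3 the lowest of all 6 libraries, so the wild-type values lay within the span of the knockout values. Knockout over wild type, the log2 fold change was 0.35 (SE 0.39), with a 95% interval of the fold from 0.685 to 2.38 (edgeR quasi-likelihood adjusted p = 0.996). Without knockout replicate 1 the log2 fold change was -0.09.

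The gene spp-3 encodes another antimicrobial pore-forming protein of the intestine, which is also found in a head neuron. It lies close to spp-5 (WBGene00004988; X, 7314883 to 7315353, minus strand, 2 exon intervals) and had 268, 141 and 92.9 CPM in knockout libraries and 151, 79.5 and 123 CPM in wild-type libraries. Knockout replicate 1 was again the highest, and wild-type replicate 2 was the lowest. The log2 fold change was 0.51 (SE 0.42; fold interval 0.726 to 2.78; edgeR adjusted p = 0.996), and without knockout replicate 1 it was -0.01.

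The gene spp-1 encodes an intestinal pore-forming protein with activity against bacteria (WBGene00004986; III, 10355118 to 10355668, minus strand, 2 exon intervals). Its exons share bases with T07C4.3 on the opposite strand, which the strand-specific counting keeps apart. Its level was 50.3, 33.5 and 20.8 CPM in knockout libraries and 29.2, 18.7 and 27.3 CPM in wild-type libraries. Knockout replicates 1 and 2 lay above all wild-type libraries and knockout replicate 3 below wild-type replicates 1 and 3. The log2 fold change was 0.48 (SE 0.36; fold interval 0.792 to 2.45; edgeR adjusted p = 0.996), and without knockout replicate 1 it was 0.11.

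The saposin-like gene spp-8 (WBGene00004993; IV, 8481664 to 8483710, plus strand, 9 exon intervals) is longer than the other members, with 1387 bases of exon. It had 35.2, 27.9 and 20.8 CPM in knockout libraries and 24.0, 13.6 and 28.3 CPM in wild-type libraries. Wild-type replicate 2 stood apart at the low end, and the other 5 libraries interleaved. This gave a log2 fold change of 0.35 (SE 0.34; fold interval 0.747 to 2.17; edgeR adjusted p = 0.996); without wild-type replicate 2 it was 0.10.

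The last saposin-like gene, spp-9, is used as a reporter of DBL-1 (TGF-beta) signalling, which represses it (WBGene00004994; X, 11487788 to 11488178, plus strand, 2 exon intervals). Its counts were low and scattered, with 22, 29 and 80 counts in knockout libraries and 8, 106 and 46 counts in wild-type libraries. Both the lowest and the highest library were wild type, at 0.177 and 2.22 CPM. Its log2 fold change was -0.14 (SE 0.78; fold interval 0.264 to 3.11; edgeR adjusted p = 0.996). Its direction was not stable, since it was 0.24 (SE 0.45; edgeR adjusted p = 0.86) when blocked on the replicate number. It was 0.22 when knockout replicate 1 was left out and 0.75 when wild-type replicate 2 was.

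Among the lysozymes, ilys-5 was the one with a high level (WBGene00017691; X, 6533484 to 6536840, minus strand, 5 exon intervals, 1023 bases of exon). It had 750.1, 484 and 319 CPM in knockout libraries and 383, 247 and 426 CPM in wild-type libraries. Knockout replicates 1 and 2 were the 2 highest libraries, while knockout replicate 3 was below wild-type replicates 1 and 3. The log2 fold change was 0.56 (SE 0.37; fold interval 0.825 to 2.62; edgeR adjusted p = 0.996), and without knockout replicate 1 it was 0.19. Its unadjusted p of 0.165 was the smallest among the members (edgeR), and 6.0% of all genes tested had one as small.

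The other 2 lysozymes were near the lower limit of detection. ILYS-3 acts in the pharynx against Gram-positive bacteria, and ilys-2 lies next to its gene. The gene ilys-2 (WBGene00016669; IV, 2467681 to 2468879, plus strand, 4 exon intervals) had 10, 3 and 18 counts in knockout libraries and 10, 16 and 23 counts in wild-type libraries. The log2 fold change was -0.64 (SE 0.57; fold interval 0.261 to 1.59; edgeR adjusted p = 0.996). Leaving out 1 library at a time, it ran from -1.03 without knockout replicate 3 to -0.21 without wild-type replicate 3. The differences within same-numbered pairs were -0.05, -1.17 and -0.60 in log2 CPM. It was thus the 1 of 7 members below wild type in each of 3 pairs, where 10.4% of all genes tested were; 0 of 7 were above in each, where 11.2% of all genes were.

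The gene ilys-3 (WBGene00016670; IV, 2464471 to 2465440, plus strand, 4 exon intervals) had 7, 0 and 2 counts in knockout libraries and 0, 2 and 1 counts in wild-type libraries. It was the member that did not pass the filter on low counts and was not tested in the main fit. With no filter its log2 fold change was 1.57 (SE 1.18; edgeR adjusted p = 0.994). DESeq2 gave 1.55 (SE 2.03) and no adjusted p. The depth-scaled ratio over the groups, 9 counts in knockout to 3 in wild type, was 3.26, with a 95% exact counting interval of 0.815 to 18.7 that covers counting error only. Without knockout replicate 1 there were 2 counts in knockout against the 3 in wild type. A count of 0 allowed a level of up to 0.123 CPM in knockout replicate 2 and 0.0663 CPM in wild-type replicate 1.

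**Figure D2:**
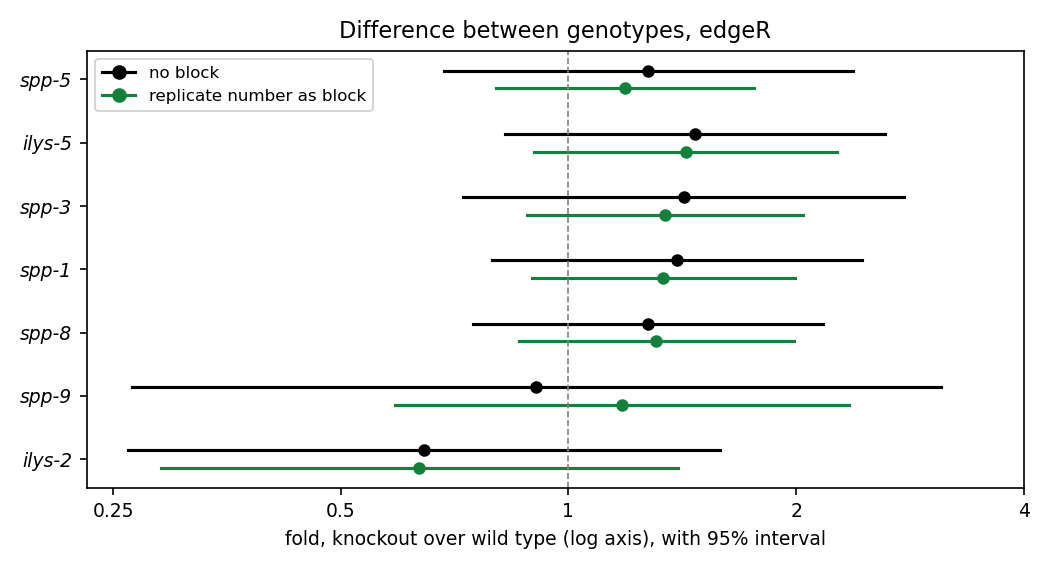
Fold, knockout over wild type, with its 95% interval (log axis) for the 7 genes that passed the filter. Black is edgeR without a block and green is edgeR blocked on the replicate number. Every interval includes 1, and spp-9 changes side between the fits.

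In the comparison as a whole, no member differed between the genotypes beyond the spread between libraries. Of 7 members tested, 0 had an adjusted p under 0.05 in edgeR, against a background of 0% (0 of 14354 genes tested). At an unadjusted p under 0.05 the count was also 0 of 7, against 0.982% of all genes. DESeq2 called 0 members, with a background of 0.187%, and edgeR blocked on the replicate number called 0 members, with 0.00697% of all genes. Blocked, 0 of 7 members had an unadjusted p under 0.05, where 4.77% of all genes did. In 0 of the 7 did the groups separate, whereas 1.72% of all genes lay higher in every knockout library than in every wild-type library and 1.56% lower. The median log2 fold change was 0.35 over the 7 members and 0.02 over all genes tested, with 5 members on the higher side, where 52.3% of all genes stood. The intervals of the 5 abundant members reach from 0.685-fold to 2.78-fold, and so hold both equal levels and differences of that size. On library totals alone the median of all genes moved to -0.21, and these 5 genes still stood above 0, at log2 fold changes from 0.11 to 0.33.

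The knockout libraries differed among themselves. Same-numbered libraries resembled each other over all genes, and within these pairs the 5 abundant members (those over 10 mean RPKM, grouped after their values were seen) shared 1 pattern. Knockout replicate 1 was the highest library in each of the 5, as it was in 21.7% of all genes tested. In the replicate 1 pair they were higher in knockout by 0.55 to 0.97 in log2 CPM, and in the replicate 2 pair by 0.53 to 1.03. In the replicate 3 pair they were lower in knockout, by differences from -0.44 to -0.39. Of all genes tested, 28.1% had the same sequence of signs over the pairs. The differences of spp-9 were 1.2, -0.88 and 0.47. Those of the 5 genes in the replicate 2 pair depend on the TMM factor of knockout replicate 2, 0.626 against 1.06 to 1.13 elsewhere. On total counts alone, ilys-5 and spp-8 were still higher in knockout in that pair, and spp-5, spp-3 and spp-1 were lower. Without knockout replicate 3 the log2 fold changes of the 5 genes were 0.52 to 0.81, and ilys-5 and spp-1 had an unadjusted p of 0.0334 and 0.0282 (edgeR adjusted p = 0.24 and 0.235). Those 2 of 7 members stand beside 19.3% of all genes with an unadjusted p under 0.05 in the same edgeR setting, 2888 of 14926. In that setting DESeq2 called 11% of the genes with an adjusted p and 0 of the 5 abundant members, with an adjusted p of 0.0996 for ilys-5 as the smallest, and gave the other 3 members no adjusted p.

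**Figure D3:**
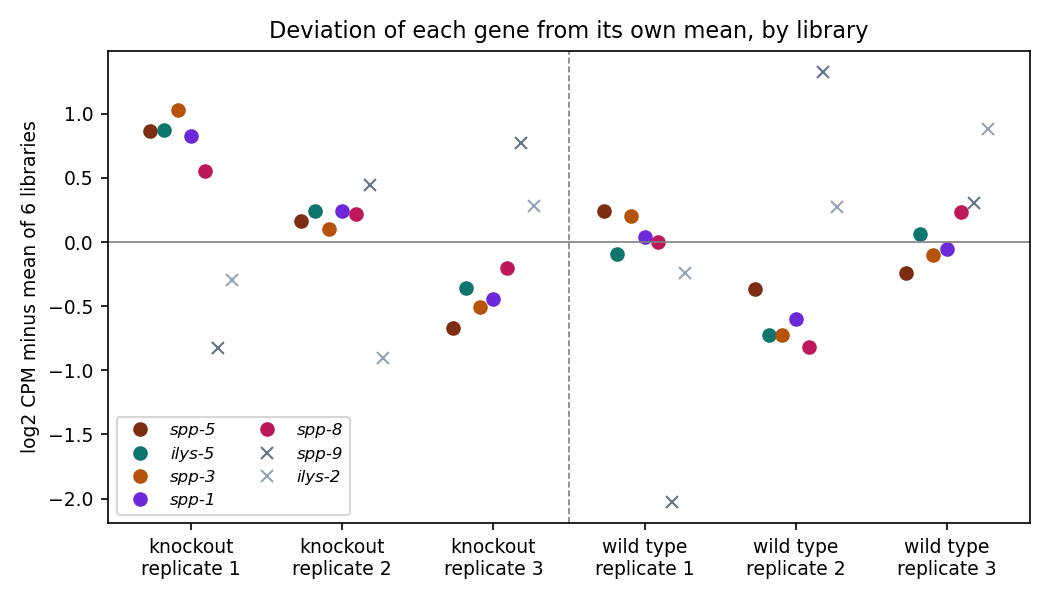
Deviation of log2 CPM from each gene's own mean over the 6 libraries, with knockout libraries on the left. Filled points are the 5 abundant genes and crosses are spp-9 and ilys-2. The filled points move together, from 0.55 to 1.03 in knockout replicate 1, and the crosses do not follow them.

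Levels of the 5 abundant genes varied more from library to library than their ratios to each other. The highest library exceeded the lowest 2.89-fold for spp-5, 3.04-fold for ilys-5, 3.37-fold for spp-3, 2.69-fold for spp-1 and 2.59-fold for spp-8. Over the 10 ratios between 2 of these genes, the highest library exceeded the lowest by 1.19-fold to 1.91-fold. The tightest ratio was that of ilys-5 to spp-1, genes of different families on different chromosomes, with 7.32, 7.08 and 7.52 in knockout libraries and 6.43, 6.48 and 7.66 in wild-type libraries (RPKM over RPKM). The loosest was that of spp-5 to spp-8, with 49.5, 38.5 and 28.9 in knockout and 47.2, 54.6 and 28.5 in wild type. Ratios to genes outside the members varied within the same range. The summed CPM of the 5 genes varied 1.48-fold over that of the intestinal markers and 1.45-fold over that of the gut luminal proteases described below. A ratio within a library does not depend on how the library is scaled. All of these values come from the same 6 libraries and are a description.

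Summed intestinal markers ordered the libraries much as the summed abundant members did. Knockout replicate 1 was highest, knockout replicate 2 next and wild-type replicate 2 lowest in both sums. The summed level of the 9 intestinal markers was 1440, 1320 and 772 CPM in knockout libraries and 1010, 710 and 1090 CPM in wild-type libraries, and none was at 0. Most of that sum lay in act-5 and vha-6. Taken singly, elt-2, act-5 and ifb-2 had these places, and the other markers departed from them. Among those, elt-7 was highest in knockout replicate 2 (3.61 CPM), erm-1 in knockout replicate 3 (127.7 CPM) and mtl-2 in wild-type replicate 3 (26.6 CPM). The summed level of the 5 genes was 1610, 999 and 629 CPM in knockout libraries and 918, 575 and 839 CPM in wild-type libraries. Divided by the intestinal sum it was 1.12, 0.755 and 0.814 in knockout and 0.908, 0.809 and 0.768 in wild type, where knockout libraries were both the highest and the lowest. In whole-worm RNA, the level of a gene within the intestine and the share of the intestine in the total RNA cannot be told apart.

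Germ line markers ordered the libraries differently. The 12 oocyte and germ line markers summed to 1774, 1916 and 5718 CPM in knockout libraries and 2265, 3773 and 5271 CPM in wild-type libraries, and the 12 listed sperm markers to 16.1, 6.85 and 4.67 CPM in knockout and 19.2, 17.5 and 10.0 CPM in wild type. The median log2 fold change was -0.31 over the 12 oocyte and germ line markers and -0.77 over the 10 sperm markers tested, and 0.26 over the 9 intestinal markers. It was 0.29 for body-wall muscle, 0.25 for neurons and 0.11 for coelomocytes. Fewer genes than listed were tested for hypodermis and cuticle (0.23, 8 of 10), the pharynx (0.03, 6 of 10) and the embryo list (-0.27, 6 of 12). Most of the level of the embryo list lay in nhr-68 and pal-1, while med-1 and end-1 were near 0. Of the marker genes 0 were called, and 0 fell below 0.05 before adjustment (edgeR). The part that the makeup of the tissue has in the values of the lysozyme and saposin-like genes was not tested.

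Other genes of the same families and of gut defence and digestion were taken as lists. Of the other ilys genes, ilys-4 alone passed the filter, with 3.92 ± 1.59 CPM in knockout and 3.13 ± 0.613 CPM in wild type (SD, n = 3 each). Of the other spp genes 16 of 25 passed it, and all 16 were estimated above 0, where 52.3% of all genes tested stood. Their median log2 fold change was 0.50, and 0 were called (edgeR). The smallest p belonged to spp-23, at 0.86 (SE 0.37; edgeR unadjusted p = 0.0451, adjusted p = 0.996), followed by spp-15 at 0.86 (SE 0.45). The level of spp-23 was 77.9, 45.2 and 29.9 CPM in knockout libraries and 30.8, 22.5 and 30.8 CPM in wild-type libraries, so that the replicate 3 pair did not share the difference. Without knockout replicate 3, DESeq2 called spp-23 (adjusted p = 0.0213), as it did 11% of the genes with an adjusted p in that setting (853 of 7739).

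**Figure D4:**
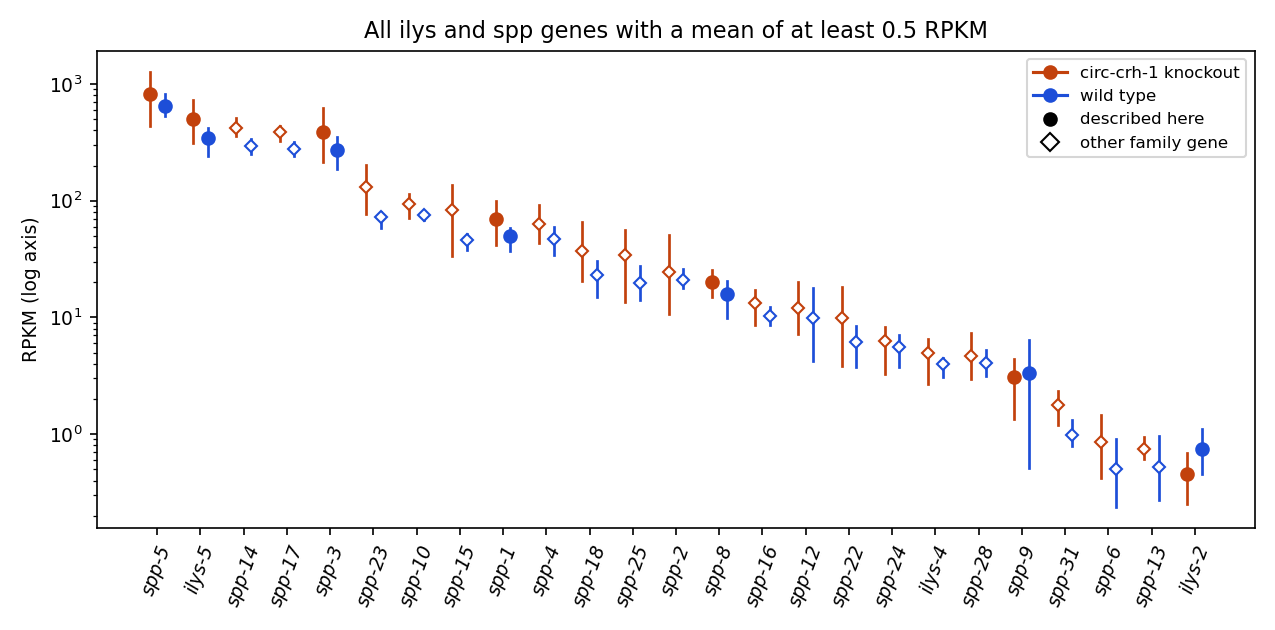
Mean RPKM of the 25 ilys and spp genes with a mean of at least 0.5 RPKM, on a log axis, in knockout (orange, left) and wild type (blue, right). Lines span the lowest to the highest of 3 libraries, filled circles are the genes described here and open diamonds the other family genes. At the upper end spp-14 (359 RPKM) and spp-17 (334 RPKM) stand beside spp-3 (332.5 RPKM).

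Genes that neighbour each other in the genome differed widely in level. On the X chromosome 5 spp genes, spp-3, spp-2, spp-6, spp-4 and spp-5, lie next to each other within 5502 bases (WBcel235 X, 7314883 to 7320384), with no other protein-coding gene between neighbours. All but spp-6 are on the minus strand. Their mean levels over the 6 libraries were 332.5, 22.8, 0.681, 55.2 and 733 RPKM in that order, a 1080-fold span. In the pairs, spp-4 had differences of 0.64, 0.68 and -0.07 in log2 CPM, while spp-2 had 0.97, -0.58 and -0.74. On chromosome IV ilys-3, ilys-2 and ilys-1 follow each other on the plus strand, with 2240 and 1534 bases between them. All 3 were at or under 0.602 RPKM on average, with 2 counts of ilys-1 in knockout and 2 in wild type. Also on IV, spp-8 follows spp-10 after 1024 bases, and spp-10, with 84.7 RPKM, was the higher of the 2.

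The protist-type lysozymes, the other lysozyme family of the gut, had 7 of 9 tested genes above 0, at a median of 0.19. Of all genes tested, 52.3% were above 0. The genes with the smallest p were lower in knockout, lys-3 at -0.73 (SE 0.52) and lys-10 at -0.84 (SE 0.64). The gut luminal proteases of the cpr (cathepsin B) and asp (aspartyl protease) families, which digest the protein of lysed bacteria, had 17 of 17 above 0, at a median of 0.43. Among them asp-12 had 1.09 (SE 0.58) and asp-8 had 1.01 (SE 0.58). Their mean level differed between the pairs by 0.85, 0.87 and -0.43, beside 0.97, 0.97 and -0.42 for ilys-5. Antibacterial factor and caenacin peptides had 8 of 10 above 0, at a median of 0.25, with abf-2 at 0.97 (SE 0.67) and cnc-8 at 0.52 (SE 0.37). Signs shared by a whole list were not particular to these lists. Among the marker lists, 9 of 9 tested genes of the intestine and 10 of 10 of body-wall muscle were above 0. For oocytes and germ line it was 1 of 12, and for sperm 0 of 10.

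Regulators of gut identity and immunity included the GATA factors and the PMK-1 MAP kinase cascade. They had 21 of 26 above 0, beside 52.3% of all genes tested, at a median of 0.17. Of these regulators, elt-2, elt-7 and pha-4 are also among the markers of the intestine or pharynx. The smallest p were those of pha-4, a FoxA factor of the pharynx and gut, at 0.43 (SE 0.38), and of pqm-1, a zinc finger factor, at 0.34 (SE 0.32). These 4 lists held 0 called genes (edgeR) and 0 genes below 0.05 before adjustment, against 0.982% of all genes tested.

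**Figure D5:**
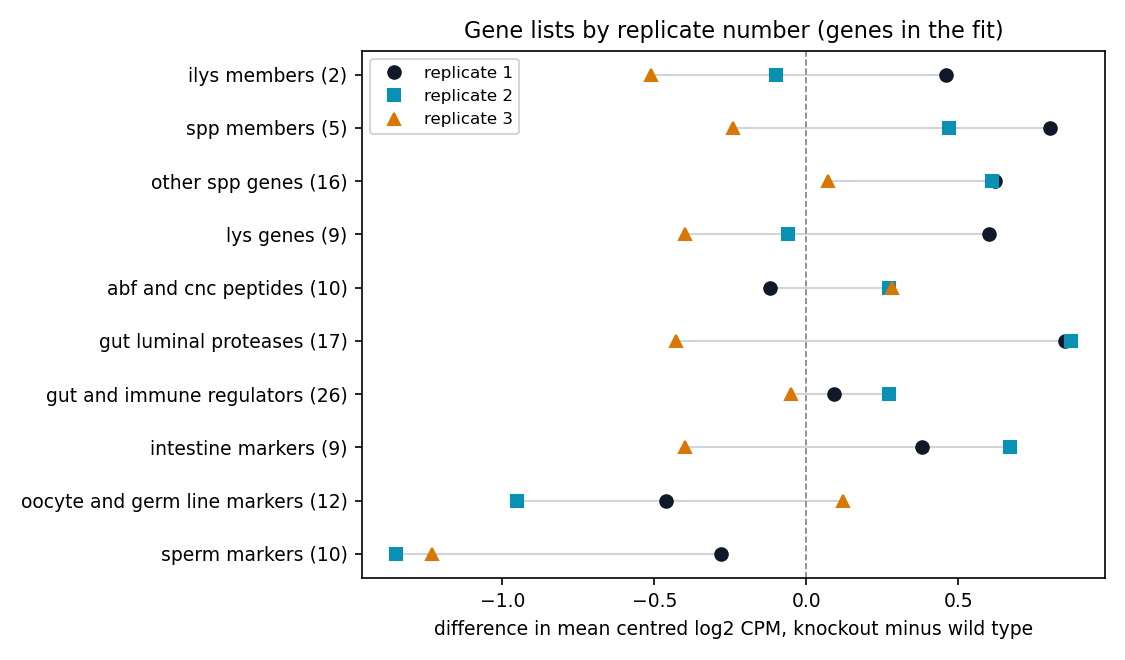
Difference in mean centred log2 CPM, knockout minus wild type, for each gene list in the pairs of libraries with the same replicate number (number of tested genes in brackets). The spp members stood at 0.80, 0.47 and -0.24 and the sperm markers at -0.28, -1.35 and -1.23 in replicates 1, 2 and 3. The mean of the spp members gives equal weight to the low-count spp-9, which stood at 1.2, -0.88 and 0.47.

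Genes whose profile over the 6 libraries was closest to those of the members were sought among 6783 genes averaging 10 CPM or more, by the root mean square difference in centred log2 CPM. For ilys-5 the closest gene was asp-2, an aspartyl protease gene, with a difference of 0.05. For spp-1 it was nspg-6 (0.04), for spp-3 F46G10.1 (0.07), for spp-5 pmp-1 (0.06), a peroxisomal-type ABC transporter gene, and for spp-8 lon-1 (0.07). No gene was close to spp-9, where the smallest difference was 0.62, for his-32, and for ilys-2 it was 0.15, for T10D4.6. The mean profile of the 7 members was closest to nadk-1 (0.08), prk-1 (0.09) and cysl-3 (0.09). That mean gives the low-count spp-9 and ilys-2 the same weight as the abundant members. In wild-type replicate 1 spp-9 stood at -2.02 and spp-5 at 0.24, so the mean there differs from the profile of the abundant members. All profiles come from the same 6 libraries, and the differences are a description.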

How the data were processed

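Per the file headers, the authors deposited raw counts of fragments per gene, made with featureCounts 1.5.0 over exons (strand setting 2) from the Ensembl gene models of WBcel235. Its command has no option for reads with several alignments or several genes, so levels of near-identical copies are uncertain. The submitters' processing notes also name bcl2fastq 2.19, HISAT2 2.1.0 and DESeq2 1.26.0. The deposited Length column supplied exon lengths, and coordinates are those of the count table. Names came from Ensembl 115 of the same build, which held 46449 of 46748 identifiers.

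Counts were filtered by filterByExpr (minimum count 10, total 15), which left 14354 genes, scaled by TMM and tested with the edgeR 4.0.16 quasi-likelihood F test (robust, newer method, R 4.3.3), knockout against wild type, with Benjamini-Hochberg adjustment and a threshold of 0.05. CPM and RPKM use TMM-scaled library sizes. Standard errors are log2 fold changes divided by the root of F. log2 CPM used a prior count of 2. Alternatives used DESeq2 1.42.0, limma 3.58.1 and the settings listed in the closing section. The members, lists and tests were chosen with earlier results of these data known.

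Beside the 8 members, named genes are the 2 with the smallest p of each list and the closest profiles. The genes of the chromosomal clusters, spp-14, spp-17, spp-22 and spp-31 were named after their values were seen. No library was a copy of another (smallest chi-square per degree of freedom 96.9). The p-values set the difference between the genotypes against the spread between these libraries. Without a block, that spread includes what same-numbered libraries share. After subtraction of group means, same-numbered libraries correlated across genes with 0.65, 0.48 and 0.58 and other pairs with -0.53 to 0.02. Differences within pairs therefore join libraries by number, although the labels do not say what a number shares. The main edgeR fit was not paired, and the replicate number entered as a block in alternatives alone. Where no block is named, estimates, intervals and p-values come from fits without it. Promoter motifs were not analysed here.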

Additional observations from a re-analysis of the deposited data

How the results depend on the processing

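Under 26 alternatives 0 members were called. Of 181 values of the 7 members in the main fit, which leave out ilys-3, 11 took the other sign. These were spp-9 with limma-voom (0.28), with the replicate block (0.24) and with DESeq2 and the replicate block (0.26), and otherwise values without 1 library. Leaving out 1 library at a time, ilys-2 ran from -1.03 to -0.21, spp-3 ran from -0.01 to 0.84, spp-5 from -0.09 to 0.66 and spp-9 from -0.64 to 0.75 in edgeR. In DESeq2 spp-3 was -0.03 and spp-5 -0.12 without knockout replicate 1, and spp-9 was 0.22 without it and 0.76 without wild-type replicate 2. The median log2 fold change of the members was 0.35, from 0.12 (library totals alone) to 0.49 (upper-quartile scaling) in the other settings, from 0.11 (without knockout replicate 1) to 0.66 (without knockout replicate 3) in edgeR, and from 0.10 to 0.63 in DESeq2 without 1 library. Genes called over the whole table numbered 0 in edgeR, 1 with the replicate block, 5 on library totals alone, 31 in DESeq2, 35 in DESeq2 with the replicate block and 21 in DESeq2 on the genes kept by the edgeR filter, a setting chosen after seeing the data. DESeq2 called 30, 20 and 853 without knockout replicates 1, 2 and 3 and 38, 2 and 24 without wild-type replicates 1, 2 and 3. The block changed no call of a member. RLE scaling, no filter, a filter of 1 CPM in 3 libraries, the older edgeR method, no robust estimation, protein-coding genes only and rRNA genes left out gave 0 calls. The causes were not tested. Depth limits ilys-3 and ilys-2, with 12 and 80 counts over all libraries.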

Other observations

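Outside the 8 genes, 2 saposin-like genes of high level had knockout libraries that, with TMM factors, all lay above the wild-type libraries. They were singled out after their values were seen. The gene spp-14 had 399.6, 512 and 355 RPKM in knockout libraries and 299, 252 and 337 RPKM in wild-type libraries, a log2 fold change of 0.51 (SE 0.27; edgeR unadjusted p = 0.0952, adjusted p = 0.996). The gene spp-17 had 402, 441 and 323.5 RPKM in knockout libraries and 316, 241 and 278 RPKM in wild-type libraries, a log2 fold change of 0.48 (SE 0.27; edgeR unadjusted p = 0.105, adjusted p = 0.996). Over 26 alternatives the log2 fold change ran from 0.23 to 0.66 for spp-14 and from 0.21 to 0.66 for spp-17, and the smallest adjusted p were 0.108 and 0.0967, both in DESeq2 without knockout replicate 3. The TMM factor was 0.626 for knockout replicate 2 and 1.06 to 1.13 for the other libraries. On total counts alone the groups overlapped in both genes. There spp-14 had 4807 of 38974777 counts in knockout replicate 2 and 5563 of 40462731 in wild-type replicate 3. For spp-17 it was 3966 counts in knockout replicate 2 and 5277 of 40626209 in wild-type replicate 1. With TMM factors, groups separated with knockout higher in 2 of 16 tested spp genes that are not among the 8, beside 1.72% of all genes tested.

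In same-numbered pairs, 4 of these 16 genes were higher in knockout in each of 3 pairs, namely spp-14, spp-17, spp-22 and spp-31, beside 11.2% of all genes tested and 0 of the 7 members tested. Of these 16 genes 0 were lower in each pair, beside 10.4% of all genes. In pairs 1, 2 and 3 the differences in log2 CPM were 0.42, 1.02 and 0.08 for spp-14, 0.35, 0.87 and 0.22 for spp-17, and 0.19, 1.11 and 0.05 for spp-22. In the replicate 3 pair those of spp-14 and spp-22 were near 0. For spp-31 the differences were 0.77, 0.96 and 0.55, with 108 counts over the knockout libraries and 67 over the wild-type libraries.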
